A study of Rattus norvegicus with 6 samples.

Results

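The Wnt genes described here encode secreted Wnt ligands, their receptors, secreted modulators of the pathway, and the cytoplasmic and nuclear proteins that carry its signal. Differentially methylated regions (DMRs) were taken by gene symbol from the annotated list of the study, namely Wnt, Fzd, Sfrp, Dkk, Rspo, Lgr, Axin, Dvl, Tcf7 and Tle followed by any suffix, together with Wif1, Apc, Ror1, Ror2, Znrf3 and Rnf43. This gave 56 of 24862 annotated regions, each counted once by position and sequence context. The rule covered 65 rat genes in the RefSeq gene table, of which 31 carried at least 1 region and 34 carried none. Of the 20972 protein-coding genes with a symbol in that table, 28.6% carried a region, a share that takes no account of gene length or CG content.

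DNA methylation had been measured in brain microvascular endothelial cells, sorted as CD45-/CD31+ cells from rat hippocampus, by enzymatic methyl sequencing of the whole genome. Male Sprague-Dawley rats, 6 weeks old at purchase, were either left in their home cages (Ctrl, 3 samples) or exposed for 8 weeks to chronic unpredictable mild stress (CUMS, 3 samples), in which a stressor such as restraint, wet bedding or food and water deprivation changed from day to day. Neither group carried a transgene or a drug treatment per the sources used here, and the comparison addressed how chronic stress alters methylation in these cells. The deposited tables gave 1 methylation level per region and group, the authors' mean, so that each value below has no SD, no n and no coverage behind it. No difference could therefore be set against the spread between rats, and every difference is a description of a region that had been listed because the groups differed. The tables held no expression, so the sorted cells could not be checked against marker transcripts.

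Wnt ligands bind Frizzled receptors together with Lrp5 or Lrp6, which stops the destruction complex of Axin, Apc and Gsk3b from degrading beta-catenin, and beta-catenin then joins Tcf/Lef factors on target genes. In the brain, Wnt7a and Wnt7b from neural cells act on endothelial cells through Frizzled receptors with the co-receptors Adgra2 (Gpr124) and Reck, and this signal is known to be needed for the formation and upkeep of the blood-brain barrier. R-spondins strengthen the signal by taking away the ligases Znrf3 and Rnf43, which otherwise remove Frizzled from the surface. Methylation of cytosine in mammals lies mostly in the CG context, and CpG islands at gene starts are usually low in it. CHG and CHH, in which H is any base but G, are the other contexts.

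Promoter sequences are shown to compare the CG density before the start of genes with and without a CG region. The 250 bases before the RefSeq start are given for Wnt7a, Wnt3a and Tcf7l1, whose CG regions overlapped the transcription start site (TSS), and for Ror1 and Dvl3, whose regions were all CHH or CHG and whose promoters were near the low and the high end in CG content of such genes. Each runs 5′ to 3′ on the strand of the gene, with CG dinucleotides in capitals. Positions are on the GRCr8 assembly and were not matched to the regions, whose coordinates are on mRatBN7.2.
Wnt7a: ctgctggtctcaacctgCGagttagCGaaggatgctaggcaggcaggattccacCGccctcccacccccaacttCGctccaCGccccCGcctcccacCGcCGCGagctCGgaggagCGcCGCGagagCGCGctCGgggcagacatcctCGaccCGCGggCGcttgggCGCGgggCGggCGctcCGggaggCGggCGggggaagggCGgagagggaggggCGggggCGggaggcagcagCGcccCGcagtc
Wnt3a: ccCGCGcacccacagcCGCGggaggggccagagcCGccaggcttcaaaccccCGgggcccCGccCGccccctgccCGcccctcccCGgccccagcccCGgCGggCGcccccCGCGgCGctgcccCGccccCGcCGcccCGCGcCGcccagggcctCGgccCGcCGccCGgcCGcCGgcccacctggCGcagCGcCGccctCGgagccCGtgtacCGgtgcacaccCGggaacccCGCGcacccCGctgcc
Tcf7l1: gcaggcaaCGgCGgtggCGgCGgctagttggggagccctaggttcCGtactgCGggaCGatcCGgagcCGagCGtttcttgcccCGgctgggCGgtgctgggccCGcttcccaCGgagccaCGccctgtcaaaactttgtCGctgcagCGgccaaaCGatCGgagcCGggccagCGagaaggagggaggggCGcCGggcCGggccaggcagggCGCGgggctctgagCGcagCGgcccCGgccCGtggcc
Ror1: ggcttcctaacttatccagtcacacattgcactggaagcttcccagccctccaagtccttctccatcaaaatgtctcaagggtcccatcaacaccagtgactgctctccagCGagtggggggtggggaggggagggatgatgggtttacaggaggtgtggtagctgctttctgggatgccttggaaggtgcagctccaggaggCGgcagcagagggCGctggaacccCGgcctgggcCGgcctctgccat
Dvl3: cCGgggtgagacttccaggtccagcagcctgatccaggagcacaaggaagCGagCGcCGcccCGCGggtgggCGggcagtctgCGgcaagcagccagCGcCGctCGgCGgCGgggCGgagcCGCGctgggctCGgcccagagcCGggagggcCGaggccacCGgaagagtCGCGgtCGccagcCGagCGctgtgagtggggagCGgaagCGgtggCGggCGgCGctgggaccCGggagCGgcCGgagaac
The windows lie at chr4:125466150-125466399 on the minus strand (Wnt7a), chr10:44577920-44578169 on the minus strand (Wnt3a), chr4:106403422-106403671 on the minus strand (Tcf7l1), chr5:119859494-119859743 on the plus strand (Ror1) and chr11:93886904-93887153 on the minus strand (Dvl3). They held 32 CG dinucleotides for Wnt7a, 38 for Wnt3a, 30 for Tcf7l1, 5 for Ror1 and 33 for Dvl3, so that a promoter dense in CG was also found without a CG region.

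Of the 56 regions, 46 (82.1%) were higher and 10 were lower in CUMS, where 75.3% of all annotated regions were higher. An excess of higher regions was thus present in the whole list as well. In the CG context 20 of 21 regions were higher (all CG regions, 80.0%), and the 19 that lay in CpG islands were all higher (all CG regions in islands, 97.0%). In the CHG context 15 of 19 were higher (all CHG regions, 68.6%), and in the CHH context 11 of 16 (all CHH regions, 78.5%). By gene, 29 had a higher region, 9 had a lower region and 7 of these had both. Wnt16 and Rspo1 carried a lower region alone.

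The levels behind these counts differed by context. Over the 21 CG regions the median level was 20.3% in CUMS and 6.49% in Ctrl. Regions higher in CUMS had median levels of 3.60% against 0.028% in the CHG context and 5.88% against 0.107% in the CHH context. A difference of at least 10 percentage points was found in 17 of the 56 regions (30.4%), against 31.1% of all regions, and 16 of these 17 were CG regions. Among CG regions the share was 76.2% for the Wnt genes and 76.1% for all. At 20 points or more it was 14.3% (3 of 21) for the Wnt genes and 31.5% for all CG regions. Of all CG regions in islands, 491 of 3083 reached 20 points.

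**Figure D1:**
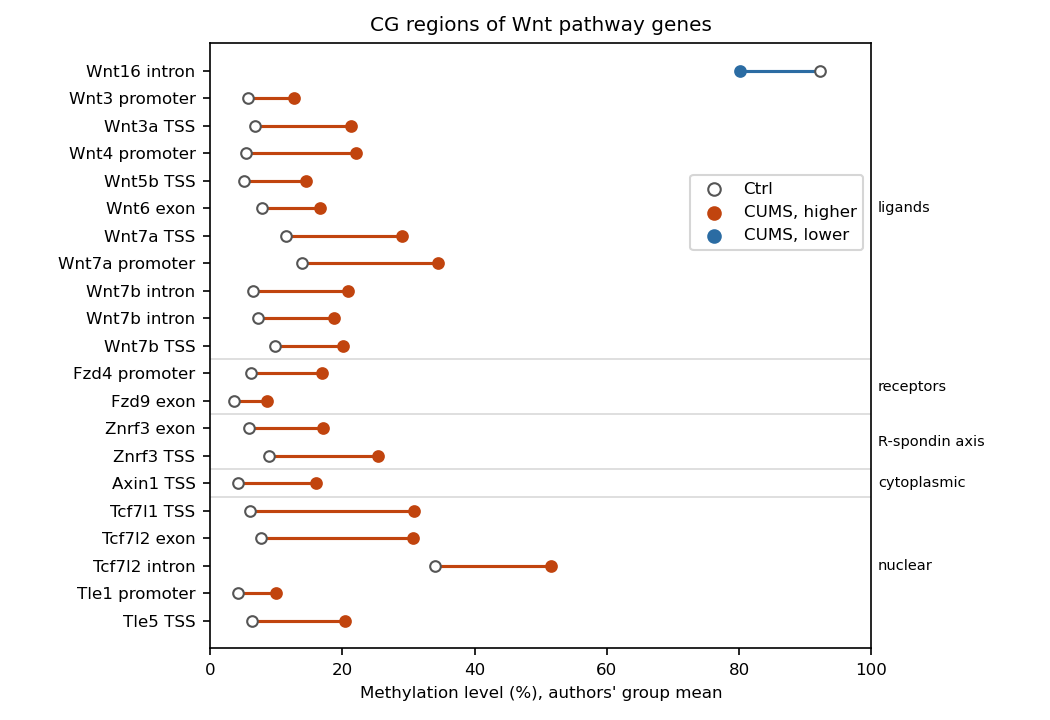
Methylation level (%, authors' group mean) of the 21 CG regions of Wnt genes in Ctrl (open circles) and CUMS (filled circles), 1 row per region with its gene and gene part, grouped by role; lines join the 2 groups, and no error exists for these values. In 19 rows Ctrl lay at 14.0% or below and CUMS above it, and Wnt16 alone was lower in CUMS.

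Among the ligands, 9 of 19 genes carried 19 regions, 15 higher and 4 lower, and 11 of them were CG regions. For this and every role below, 28.6% of all protein-coding genes with a symbol carried a region. Of all annotated regions, 75.3% were higher. Wnt7a, a ligand that acts on brain endothelium, had the largest ligand difference. Its promoter region (chr4:123909097-123909157, 23 CG cytosines) stood at 34.5% under CUMS against 14.0% under Ctrl (20.5 points). A further region over its TSS, 71 bp away (chr4:123908898-123909025), stood at 29.0% and 11.4%. These were also the highest Ctrl levels of any Wnt gene region in a CpG island.

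Wnt7b, which acts beside Wnt7a, carried 3 CG regions, all in islands and all higher. Its TSS region stood at 20.2% in CUMS and 9.80% in Ctrl. The intron regions, 0.677 and 5.42 kb from it, stood at 18.8% against 7.24% and at 20.8% against 6.49%. The difference thus ran from 10.4 to 14.3 points along the gene and was smallest at the TSS.

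Wnt4, which acts in kidney and reproductive tract development, had a promoter region at 22.0% against 5.45% (16.5 points). Wnt3a, an activator of beta-catenin signalling, had a TSS region (chr10:44078322-44078519) at 21.3% against 6.84% (14.4 points). Wnt5b, mostly a ligand of beta-catenin-independent signalling, had a TSS region at 14.4% against 5.12%. Smaller differences were found in Wnt6, with 16.6% against 7.86% at the first exon and 5′ end, and in Wnt3, with 12.7% against 5.74% at the edge of its promoter island. Hence all of the ligand regions at a promoter or TSS in the CG context were higher in CUMS. The same held for 1453 of the 1500 CG regions at promoters over all genes.

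Wnt16 went the other way. Its intronic region in a repeat, away from any island (chr4:50827639-50827695, 11 CG cytosines), stood at 80.1% in CUMS and 92.3% in Ctrl. This was the lone lower CG region of the 56. It ranked 976 of 1167 lower CG regions by size, with a difference of -12.2 points.

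Outside the CG context, ligand regions went in both directions within 1 gene. Wnt3a had intronic CHG regions at 4.11% against 0.019% and at 2.72% against 0.012%, 3.43 and 5.28 kb from its TSS region. The nearer of them was also annotated to a promoter of Wnt3a. Its exonic CHG region at 35.4 kb was lower, with 0.184% against 2.41%. Wnt5b had a CHG region at 3.23% against 0.035% and a lower CHH region at 0.553% against 6.89%. Wnt2, a ligand of lung and vascular development, had intronic CHG regions at 3.66% against 0.020% and 3.00% against 0.021%, and a lower CHH region on the promoter (0.198% against 3.82%). Beside a higher CG region at the start, Wnt3a thus had 2 higher and 1 lower non-CG regions, and Wnt5b 1 of each direction.

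**Figure D2:**
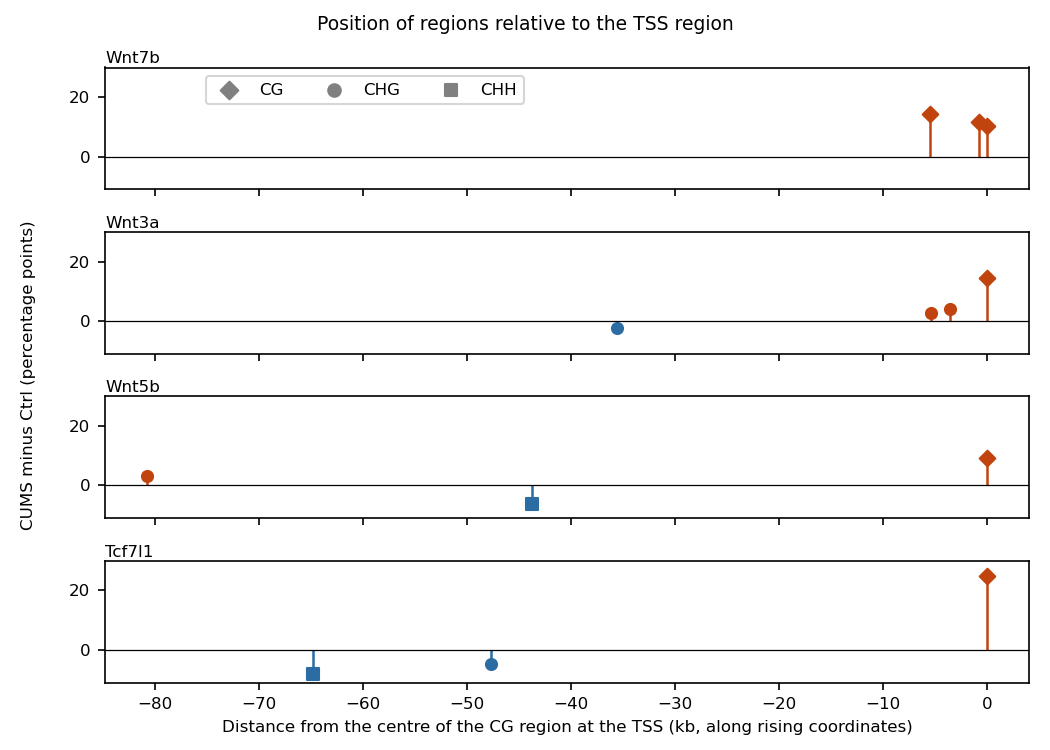
Difference between CUMS and Ctrl (percentage points) of each listed region against its distance (kb, along rising coordinates) from the centre of the CG region at the TSS, for Wnt7b, Wnt3a, Wnt5b and Tcf7l1; diamonds are CG, circles CHG and squares CHH regions, red higher and blue lower in CUMS. The CG regions are all higher, and the lower regions of Wnt3a, Wnt5b and Tcf7l1 in the annotated list lie 35.5 to 64.8 kb away. CHH regions outside the annotated list are not shown, and lower ones of Wnt3a and Wnt5b lie closer.

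Among the receptors, 6 of 12 genes carried 11 regions, 9 higher and 2 lower. Fzd4, a Frizzled of retinal and brain vessels that binds Norrin and Wnt ligands, had a promoter CG region at 17.0% in CUMS and 6.20% in Ctrl (10.8 points). A CHG region on the same promoter was lower, with 0.027% against 2.20%, and a CHH region at the 3′ end stood at 10.3% against 1.12%. All 3 Fzd4 regions were also annotated to another gene that the table names by identifier only, so they cannot be given to Fzd4 alone. Fzd9 had a CG region at its 5′ end, with 8.66% against 3.62%, the smallest difference of the 21 CG regions (5.04 points).

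The other receptor regions were CHG or CHH. Fzd10 had a promoter CHH region at 9.14% against 0.038%. Fzd3 and Fzd6, which take part in planar cell polarity, had 1 intronic CHG region each, at 3.77% against 0.182% and at 3.60% against 0.362%. Ror1, a receptor tyrosine kinase of beta-catenin-independent signalling, had 4 intronic CHH regions spread over 216.0 kb. Of these, 3 were higher, with CUMS levels of 5.28 to 8.25% against Ctrl levels of 0.024 to 0.118%, and 1 was lower (chr5:114836289-114836496), with 0.099% against 8.70%. With -8.60 points it had the largest negative difference of the non-CG regions.

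Secreted inhibitors were the role with the fewest regions. Of its 9 genes, 2 carried any, where 28.6% of all protein-coding genes with a symbol carried a region. Dkk2, which binds Lrp5 and Lrp6, had an intronic CHH region (chr2:220586421-220586683) at 11.4% against 0.291%, and its difference of 11.1 points was the largest of the non-CG regions. Dkk3 had a CHG region at 2.81% against 0.163%. None of the 4 Sfrp genes, which encode decoys that resemble Frizzled, and neither Dkk1, Dkk4 nor Wif1 carried a region.

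The R-spondin axis held 12 regions in 6 of 9 genes, 10 higher and 2 lower. The shares over the whole list were 28.6% of genes with a region, with no account of gene length, and 75.3% of regions higher. Each of the 4 R-spondin genes carried 1 or 2, all intronic and none in the CG context. Rspo3, which also acts in vessels, had a CHH region (chr1:28327486-28327730) at 9.54% against 0.075%. Rspo2 had a CHH region at 5.56% against 0.107% and a CHG region at 5.86% against 0.010%. Rspo4 had 3.58% against 0.088% in its CHH region and 4.28% against 0.012% in the CHG region inside it. Rspo1 was lower, with 0.150% against 5.14% in a CHG region.

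Lgr6, an R-spondin receptor, had 3 higher regions, with CUMS levels of 3.79 to 3.92%, and a lower intronic CHH region, with 0.059% against 4.88%. Of the higher ones, the intronic CHG region (3.79%) lay inside the CHH region (3.92%), so they share a place. Between its listed regions, Lgr6 also had 3 CHH regions outside the annotated list, all lower. Znrf3, the ligase that R-spondins oppose, was the lone gene of this axis with CG regions. Its TSS region stood at 25.3% against 8.94% (16.4 points), and the neighbouring 5′ UTR region, 52 bp away, at 17.1% against 5.89%. The regions of this ligase thus lay in the CG context at its start, whereas those of the R-spondins lay in introns outside the CG context.

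In the cytoplasmic group, 3 of 6 genes carried 1 higher region each. Axin1, the scaffold of the destruction complex, had a TSS region of 105 CG cytosines at 16.1% against 4.21% (11.9 points). Dvl3, an adaptor below Frizzled, had a promoter CHG region at 2.88% against 0.018%, and Apc an intronic CHG region at 3.13% against 0.327%. Among the nuclear genes, 5 of 10 carried 9 regions, 7 higher and 2 lower.

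The largest CG differences of all Wnt genes were in the Tcf genes. Tcf7l1, which mostly represses target genes, had a TSS region (chr4:104845115-104845491, 95 CG cytosines) with a level of 30.8% under CUMS against 5.97% under Ctrl (24.8 points). It ranked 697 of 4682 higher CG regions of the whole list. In its introns, 47.4 and 64.5 kb away, a CHG and a CHH region were lower, with 0.572% against 5.36% and 1.47% against 9.46%. Tcf7l2, the factor that pairs with beta-catenin in many tissues, had an island region over an exon and intron at 30.6% against 7.78% (22.9 points) and an intronic region outside islands at 51.5% against 34.1%, which held 6 CG cytosines.

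Of the Tle co-repressors, Tle5, a short member of the family, had a TSS region of 113 CG cytosines at 20.3% against 6.41%. Tle1 had a promoter region at 10.0% against 4.16% and an intronic CHG region at 3.52% against 0.128%. Tle4 had an intronic CHH region at 3.03% against 0.314%. Levels of the CG regions at a promoter or TSS thus ranged from 10.0 to 34.5% in CUMS over all roles.

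**Figure D3:**
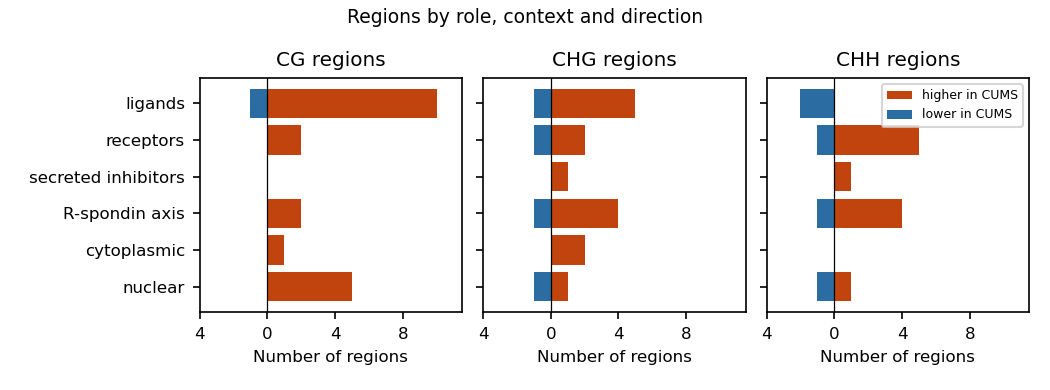
Number of regions by role of the gene (rows) in the CG, CHG and CHH contexts (panels), higher in CUMS to the right and lower to the left of 0. CG regions were mostly those of ligands (11) and nuclear genes (5), and CHH regions were mostly those of receptors (6) and the R-spondin axis (5).

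**Figure D4:**
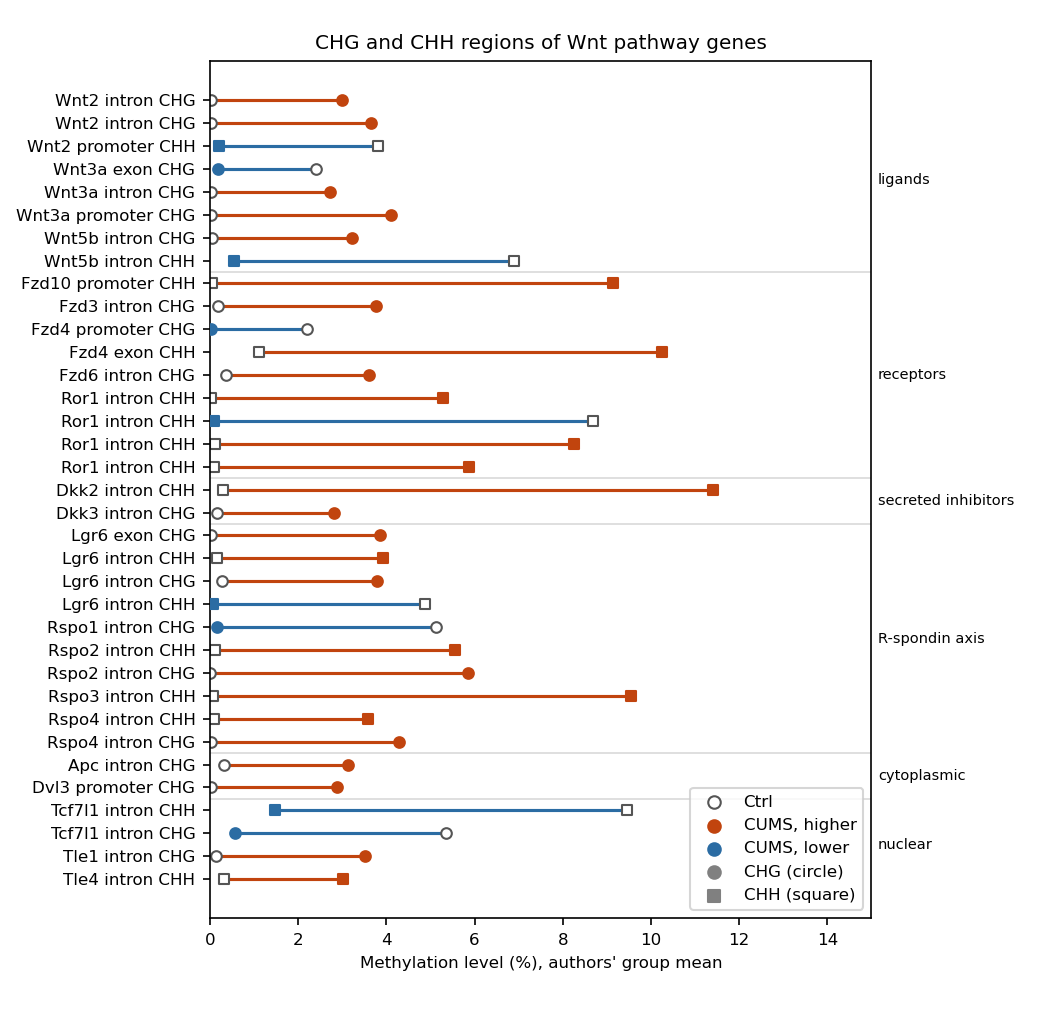
Methylation level (%, authors' group mean) of the 35 CHG (circles) and CHH (squares) regions of Wnt genes in Ctrl (open) and CUMS (filled), 1 row per region, grouped by role; no error exists for these values. In each row 1 group lay between 0.010 and 1.47% and the other between 2.20 and 11.4%, with 9 rows lower in CUMS.

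The place of the regions in the genes was not used to choose them. Of the 56, 18 (32.1%) were annotated to a promoter, against 18.7% of the 12262 regions annotated to any gene part, and 16 of the 18 were higher (all promoter regions, 88.8%). The 18 count promoters of the Wnt genes themselves, whereas the share over all regions counts a promoter of any gene. The CHH region of Fzd4, on the promoter of another gene, is therefore not among the 18. TSS annotations were found for 8 regions in 8 genes (14.3%, against 4.21%), all in the CG context. CpG islands held 39.3% against 25.7%, and repeats held 17.9% against 33.0%. Of the 35 non-CG regions, 27 were annotated to introns alone. These shares are descriptions with no test.

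In CpG islands, the 19 Wnt regions were much like the rest in level and size of difference. More of them lay at a TSS, with 42.1% against 13.8% of all CG regions in islands. Their median levels were 20.2% in CUMS and 6.41% in Ctrl, and over the 2991 island regions higher in CUMS they were 17.9% and 6.28%. The median difference was 11.9 points for the Wnt genes and 11.4 points for all. At the TSS the median levels were 20.8% against 6.62% for the 8 Wnt regions and 18.5% against 6.15% for the 425 higher island regions of all genes.

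**Figure D5:**
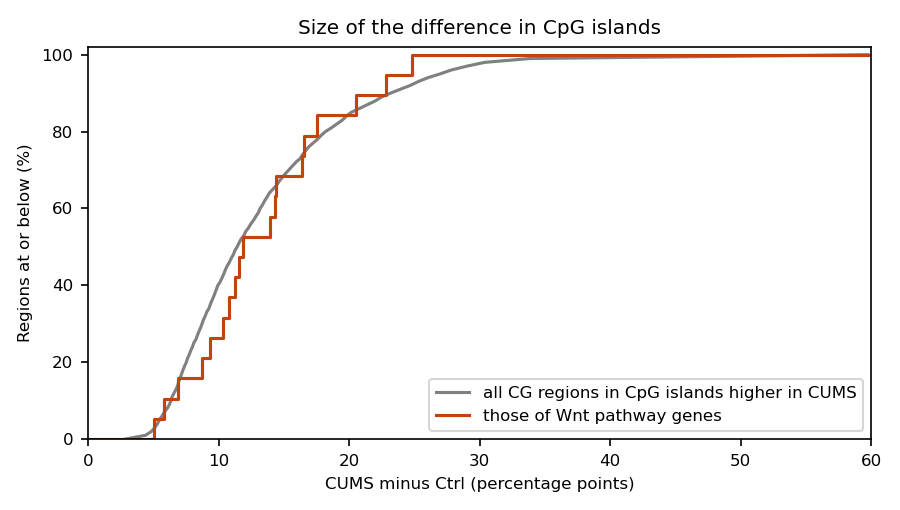
Share of regions (%) at or below a given difference between CUMS and Ctrl (percentage points) for the 19 CG regions of Wnt genes in CpG islands (red steps) and for all 2991 higher CG regions in islands (grey line). The median difference is 11.9 points for the Wnt genes and 11.4 points for all, and the Wnt regions end at 24.8 points.

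CHG and CHH regions were often found at the same place. Of the 19 CHG regions of Wnt genes, 14 (73.7%) overlapped a CHH region of the full list, against 68.1% of all CHG regions. All 14 pairs had the same direction, and how often this held over all CHG regions was not counted. In Rspo1, for example, the CHH region over the lower CHG region stood at 0.120% against 3.85%. None of the 21 CG regions overlapped a CHG or CHH region, which was also rare among all CG regions (4.63%) and those in islands (6.23%). A CHG or CHH region within 2 kb was found for 9 of the 21 and for 27.8% of all CG regions. These are unlike sets, as 19 of the 21 lay in islands, and the share for island regions was not counted.

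The CG content of the promoters was counted in RefSeq windows of 250 bases before to 50 after the start, which were found for 21 of the 31 genes with a region. The median was 39.5 CG dinucleotides (24 to 53) for 8 genes with a CG region at the promoter or TSS, and 26 (4 to 39) for 13 genes with other regions. Promoters of Wnt genes without a region had a median of 21 (2 to 52, 31 promoters of 28 genes), and all 33469 promoters had a median of 7. The Tcf/Lef core motif CTTTGA, searched on both strands, was present in none of the 8, in 1 of the 13 (Tle4) and in 6 of the 31, and in 16.1% of all promoters.

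Other genes of the pathway were taken from a list of 49 symbols. Of these, 32 carried 57 regions, 48 higher and 9 lower (84.2% higher, against 75.3% of all regions), and 23 of 25 CG regions were higher (80.0% of all CG regions). Most of these CG regions lay in islands, where 97.0% of all CG regions were higher. The share of genes with a region over all genes of the table was 28.6%, as given above. The co-receptor Adgra2, which Wnt7a and Wnt7b need in brain endothelium, had a CG region at its 5′ end at 34.1% against 5.63% (28.4 points), more than any region of the Wnt genes. Casein kinase Csnk1e stood at 31.6% against 6.28% at its promoter. At the TSS, Ctnnb1 (beta-catenin) stood at 16.1% against 5.07%, Gsk3b at 19.7% against 7.46% and the co-receptor Lrp5 at 13.1% against 5.78%. Gsk3b also had a lower intronic CG region, with 85.1% against 93.8%. Lrp5 had a lower (0.016% against 4.05%) and a higher (5.75% against 0.014%) intronic CHG region. Porcn, the acyltransferase that makes Wnt ligands active, was lower in its 5′ UTR, with 9.52% against 24.3%. Its intronic CHH and CHG regions were higher, with 7.64% against 0.322% and 3.76% against 0.027%.

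Among 20 target genes of the pathway in brain endothelium, 4 carried a region, where 28.6% of all protein-coding genes with a symbol did. These genes held 7 regions, all in the CG context, 6 higher and 1 lower, where 80.0% of all CG regions were higher. The glucose transporter gene Slc2a1 had an intronic region at 59.5% against 26.6% (32.9 points). Plvap, a protein of fenestrated vessels, had a higher intronic region (53.4% against 22.9%) and a lower exonic one (24.7% against 39.4%). Foxf2 had 3 higher island regions, with CUMS levels of 14.5 to 22.9%, and Notum, a secreted inhibitor of Wnt ligands that is also among the 49, stood at 15.6% against 5.18%. The other 16, including Cldn5, Lef1, Axin2 and Sox17, carried none.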

How the data were processed

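Genomic DNA of CD45-/CD31+ hippocampal cells was treated with TET2 and an APOBEC deaminase and sequenced. Per the labels, the authors used FastQC 0.11.3, fastp 0.20.0, Bismark 0.16.3 and Bowtie2 on mRatBN7.2. Regions were called with DSS, and methylation levels were deposited as a fraction, 1 mean of 3 samples per group. Levels are printed in percent, and differences were recomputed as CUMS minus Ctrl; the authors' own difference and region score columns, and a profile over all gene bodies, were not used. Incomplete deamination would raise every level. The methods name a limit of 10 percentage points, whereas the listed differences reach down to 2.00 points, and the annotated list holds 9996 of 145823 CHH regions, with more cytosines each (median 125.5 against 57 for the others). Read depth is unknown, so no interval was computed. Analysis used Python 3.11.15, pandas 2.3.3 and numpy 2.4.6, and the gene rule was tested on simulated data.

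No test was made, because no value per sample was at hand. All genes with a region were named. Values were given for lower CG regions, for the 12 largest CG differences overall and at promoters, for the 5 largest CHG and CHH differences in each direction, and for genes with 3 or more regions or both directions; other values were added after they were seen, as were the genes named from the wider pathway and target lists. Members and lists were chosen with earlier results of these data known. Promoter sequences are RefSeq, GRCr8. Alternatives changed the smallest difference, cytosine number, length, merging within 1 kb, genes per region, member genes, context, CHH list, log2 scale, summary and gene part.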

Additional observations from a re-analysis of the deposited data

Results flagged for a closer look

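The annotated list leaves out most CHH regions. Between the first and last listed region of the 14 Wnt genes with at least 2 regions, the full list held 44 further CHH regions, and 28 of them were higher and 16 lower in CUMS. Of the 44, 3 stand above among the CHH regions that overlapped a CHG region, and the other 41 were used in no comparison (26 higher, 15 lower). The share higher, 63.6%, was close to the 63.5% of all 135827 regions outside the annotated list. Median levels were 2.73% in CUMS and 0.195% in Ctrl for the higher ones, and 0.203% and 3.34% for the lower ones. The largest was in Tcf7l1 (chr4:104832847-104833063), at 16.0% against 2.59%, a difference of 13.4 points, while the listed CHH region of this gene was lower in CUMS. It held 93 cytosines.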

How the results depend on the processing

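No paired analysis was possible because each group is given as 1 mean, and for the same reason leaving out each replicate was not run. Across 81 values under 14 settings, 52 stayed close to the reported value and 29 moved. The share higher in CUMS ranged from 68.8 to 100% over 12 settings, of which the log2 scale cannot change a direction. At 10 points or more, 16 regions were higher and 1 lower (94.1%), in 12 genes, with 10 promoter regions. At 20 points or more, 3 were higher and 0 lower (100%), in 3 genes, with 3 in islands, 2 at promoters and a median CUMS level of 30.8%. In the whole list, 3389 of 4454 CG regions at 10 points or more were higher, and 1791 of the 1870 in islands. For CHG and CHH regions at 10 points or more it was 179 of 280 and 2685 of 2997. At 20 points or more, 1315 of 1841 CG regions were higher, and 460 of the 491 in islands. Regions of at least 100 bp gave 29 and 6. CG regions alone gave 20 and 1 (95.2%, 16 genes), CHG regions 15 and 4 (15 genes), and CHH regions 11 and 5 (68.8%, 12 genes). Adding CHH regions of the full list gave 74 and 26. The mean CG level in Ctrl was 12.4%, and 8 regions were at the TSS in place of 18 at promoters. These counts fell because each setting keeps fewer regions, except where the full list adds regions. Depth and the spread between rats set limits that these tables cannot show.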

Other observations

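Markers of endothelial and other brain cell types were looked up among the listed regions, which say nothing on expression. Of 10 endothelial markers, 4 (Pecam1, Tek, Tie1 and Vwf) carried 5 regions, 3 higher and 2 lower in CUMS. The higher ones were a CHG region of Pecam1 (5.95% against 0.253%) and CHH regions of Vwf (5.04% against 0.295%) and Tie1 (7.41% against 1.34%). The lower ones were a CHH region of Tek (0.070% against 9.21%) and a CG region of Tie1 (4.22% against 16.4%). Of 5 pericyte markers, 2 carried 3 regions, 2 higher and 1 lower. Of the 4 markers listed for each other type, 2 carried regions in every case. Over all protein-coding genes with a symbol, 28.6% carried a region. The 6 regions of neurons, the 3 of microglia and blood and the 2 of astrocytes were all higher, for example the CG region of the neuronal gene Rbfox3 (22.8% against 7.68%). Most of the neuron regions were of Rbfox3, and most of those of microglia and blood were of Csf1r. In the whole annotated list, 75.3% of regions were higher. Both regions of oligodendrocyte genes were lower, a promoter CG region of Mog (49.1% against 81.4%) and a CHG region of Mbp (0.016% against 5.41%). Whether other cells in the sort had a part in the differences of the Wnt genes was not tested.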
